A study of Homo sapiens with 10 samples.

Results

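Oxidative phosphorylation genes were followed in T47D cells, a human luminal breast cancer line. Members were all genes of the array table with a single symbol that begins with NDUF, UQCR, ATP5, SDHA to SDHD, or COX and a digit. Where a gene had several probe sets, the one with the highest mean over the 10 arrays was used. This gave 58 of 8904 measured genes. Of these, 54 are nuclear genes that code for protein, 2 are encoded by the mitochondrial genome (COX1 and COX2), and 2 are non-coding transcripts that the name rule takes in (COX10-DT and NDUFV1-DT). By role, 19 members belonged to complex I, 3 to complex II, 5 to complex III, 20 to complex IV and 9 to the ATP synthase, assembly factors included.

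RNA was measured on Affymetrix U133 Plus 2 arrays, with 2 arrays in each of 5 groups. PR-negative T47D-Y cells, a clone of T47D, received the ethanol vehicle. WT PR-A cells are T47D-Y cells that stably express the wild-type A isoform of the progesterone receptor. PR-A K388R cells stably express the same isoform with its SUMO acceptor lysine replaced by arginine. Both PR-A lines received vehicle or 10 nM R5020, a synthetic progestin, for 24 h. Each genotype was thus represented by a single transfected line, so line and genotype cannot be told apart. Nothing in the sources states that the replicates were separate cultures, so the p-values describe only how much these arrays varied, which may be technical. Values are log2 signals, and their precision is limited by the number of arrays.

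Oxidative phosphorylation takes place in the inner mitochondrial membrane. Complexes I and II take electrons from NADH and succinate, complex III passes them to cytochrome c, and complex IV hands them to oxygen. Complexes I, III and IV pump protons, and the ATP synthase uses the gradient to make ATP. Most subunits are nuclear genes, while a small core is encoded by mitochondrial DNA. NRF1, the ETS factor GABP, the estrogen-related receptors and the PGC-1 coactivators are known regulators of the nuclear genes.

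The promoters of the 4 members that rose in R5020-treated WT PR-A cells are shown because the known regulators above act on such regions. Each is the 250 bases before the RefSeq start (GRCh38.p14), written 5′ to 3′ along the gene, and capitals mark motif matches.
COX10, chr17:14069254-14069503, plus strand: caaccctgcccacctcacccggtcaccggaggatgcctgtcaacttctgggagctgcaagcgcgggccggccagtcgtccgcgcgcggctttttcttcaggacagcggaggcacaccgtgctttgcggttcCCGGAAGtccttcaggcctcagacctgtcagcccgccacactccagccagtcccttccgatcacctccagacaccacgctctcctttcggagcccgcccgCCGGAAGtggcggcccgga
UQCRC1, chr3:48609647-48609896, minus strand: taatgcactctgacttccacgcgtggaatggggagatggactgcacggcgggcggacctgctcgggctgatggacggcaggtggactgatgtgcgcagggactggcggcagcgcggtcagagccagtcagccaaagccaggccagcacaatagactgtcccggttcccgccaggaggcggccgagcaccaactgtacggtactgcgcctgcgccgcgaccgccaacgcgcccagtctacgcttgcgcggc
COX5A, chr15:74938074-74938323, minus strand: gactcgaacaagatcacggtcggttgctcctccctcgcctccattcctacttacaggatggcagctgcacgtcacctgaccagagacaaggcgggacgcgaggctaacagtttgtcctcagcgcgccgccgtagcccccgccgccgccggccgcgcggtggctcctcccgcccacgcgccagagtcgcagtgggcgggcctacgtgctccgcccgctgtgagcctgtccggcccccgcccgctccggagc
SDHD, chr11:112086623-112086872, plus strand: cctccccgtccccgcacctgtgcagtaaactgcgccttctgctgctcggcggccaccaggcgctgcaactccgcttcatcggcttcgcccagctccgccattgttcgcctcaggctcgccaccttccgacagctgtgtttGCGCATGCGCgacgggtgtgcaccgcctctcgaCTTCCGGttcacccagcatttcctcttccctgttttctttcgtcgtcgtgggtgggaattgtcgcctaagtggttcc

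Motifs were searched on both strands over the whole window of 300 bases, which ends 50 bases into the transcript, and 47 of the 58 members had a RefSeq window. The NRF1 core GCATGCGC was in the windows of 9 of 47 members (19.1%), against 4.88% of 6908 measured genes and 3.05% of all 35093 windows. The ETS site CCGGAAG was in 19 of 47 (40.4%), against 15.5% of measured genes and 10.3% of windows. The estrogen-related receptor element TGACCTTG was in 3 of 47 (6.38%), namely SDHD, COX8A and NDUFA5, against 1.42% and 1.28%. The progesterone receptor half-site AGAACA was in 7 of 47 (14.9%), near the 15.4% of measured genes and 14.8% of windows. COX10 held the ETS site at bases 119 and 19 before the start. SDHD held the NRF1 core on both strands, in overlapping matches, an ETS site, and a receptor element from base 12 of the transcript, outside the stretch printed. No match lay in the UQCRC1 or COX5A windows. Matches are letters only and were not tested as binding sites.

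The members were bright in these cells. Of 58, 46 had a mean at or above the upper quartile of all probe sets (7.0). Below the median (4.64) were 2, the probe sets of the copper chaperone COX17 and the complex I subunit NDUFS4. These are levels of the probe set used, and how well it reports the gene's main transcript was not tested. The replicate arrays of a group correlated at 0.996 to 0.997 over all probe sets. Of 12 luminal markers 8 were measured and 7 were at or above the upper quartile. So were 1 of 5 measured basal markers (ACTA2) and 1 of 7 fibroblast markers (COL1A1). Leukocyte markers (5 measured) had none there.

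In WT PR-A cells, R5020 was followed by a rise of 4 members, one each from complexes II and III and a pair from complex IV, and no member fell. Over all genes 5.64% passed the test upward and 4.81% downward (limma with the replicate number as a block, Benjamini-Hochberg adjusted p under 0.05). A call also required a change of at least 1.5-fold, which only COX10 met, against 4.4% of genes called higher and 3.47% called lower. At an unadjusted p under 0.05 the count was 12 of 58 (20.7%), near the 21.6% of all genes.

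COX10 makes heme O, a step in building the heme A of complex IV. Its probe set read 7.88 and 7.86 in WT PR-A vehicle and 8.55 and 8.43 after R5020. PR-A K388R cells read 7.52 and 7.74 in vehicle and 7.78 and 7.81 after R5020, and T47D-Y cells read 7.83 and 7.73. Both WT PR-A R5020 arrays were above all 8 others. The change in WT PR-A was 0.62 ± 0.12 on the log2 scale (SE), or 1.54-fold (limma adjusted p = 0.0095), against 0.17 ± 0.12 in PR-A K388R (adjusted p = 0.71). A dimmer COX10 probe set, with a mean of 4.35, gave 0.15 ± 0.21 in WT PR-A.

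COX5A is a nuclear-encoded subunit of complex IV. Its probe set read 12.11 and 12.08 in WT PR-A vehicle and 12.66 and 12.56 with R5020. The PR-A K388R arrays read 12.10 and 12.12 in vehicle and 12.23 and 12.31 with R5020, and the T47D-Y arrays read 12.07 and 12.11. The WT PR-A R5020 arrays were again the highest of the 10. The change was 0.52 ± 0.11 in WT PR-A (adjusted p = 0.013) and 0.16 ± 0.11 in PR-A K388R (adjusted p = 0.66).

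UQCRC1 is a core subunit of complex III. Its probe set read 10.54 and 10.63 in WT PR-A vehicle and 11.19 and 11.07 with R5020. It read 10.73 and 10.72 in PR-A K388R vehicle, 11.11 and 10.98 with R5020, and 10.63 and 10.81 in T47D-Y cells. The R5020 arrays of both lines overlapped, and all 4 were above the vehicle arrays. The change was 0.54 ± 0.12 in WT PR-A (adjusted p = 0.019), and in PR-A K388R it was 0.32 ± 0.12, the highest of the 58 there, without passing the test (adjusted p = 0.33).

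SDHD anchors complex II in the membrane. Its probe set read 10.70 and 10.72 in WT PR-A vehicle and 11.09 and 11.12 with R5020. It read 10.60 and 10.61 in PR-A K388R vehicle, 10.53 and 10.54 with R5020, and 10.53 and 10.46 in T47D-Y cells. Both WT PR-A R5020 arrays stood above all others. The change was 0.39 ± 0.10 in WT PR-A (adjusted p = 0.046) and -0.07 ± 0.10 in PR-A K388R (adjusted p = 0.89).

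With each array left out in turn, the log2 changes stayed between 0.55 and 0.69 for COX10, 0.46 and 0.58 for COX5A, 0.47 and 0.62 for UQCRC1 and 0.37 and 0.41 for SDHD. Where a compared group was left with 1 array, its spread was taken from the remaining groups. The adjusted p of COX10 ran from 0.00866 to 0.0897, and it missed the threshold without either WT PR-A vehicle array or without R5020 replicate 1. COX5A missed it without the same arrays (0.0203 to 0.118), UQCRC1 without any of the 4 WT PR-A arrays (0.024 to 0.171), and SDHD without any one of the 10 arrays (0.0643 to 0.249). By unmoderated contrasts COX10 (adjusted p = 0.0705) and UQCRC1 (adjusted p = 0.0864) did not pass, and on quantile-normalized values SDHD did not (adjusted p = 0.0754).

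**Figure D1:**
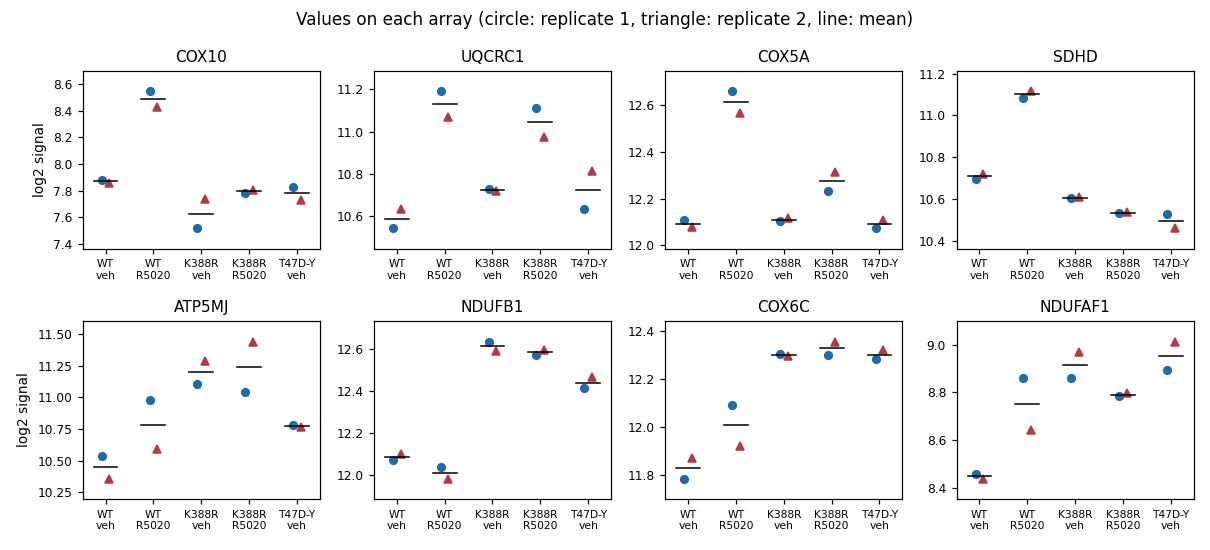
Log2 signal of 8 members on each of the 10 arrays, with circles for replicate 1, triangles for replicate 2 and lines for the group mean; each panel has its own axis, which does not start at 0. COX10, COX5A and SDHD were highest on the WT PR-A R5020 arrays, and NDUFB1 and COX6C were lowest on the 4 WT PR-A arrays.

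Most other members lay slightly above 0 in WT PR-A cells. The median change of the 58 was 0.11, against -0.02 over all genes, and 42 of 58 (72.4%) were above 0, against 46.0% of genes. The members' median was 10.78 and 10.80 on the WT PR-A vehicle arrays and 11.09 and 11.02 with R5020, and in PR-A K388R it was 10.85 and 10.80, then 10.99 and 10.98. These are medians of levels, which need not differ by the median of the changes. On quantile-normalized values the median change was 0.07. The ATP synthase had 8 of 9 members above 0, with a median of 0.19, from ATP5MF (-0.16 ± 0.14) to ATP5MJ (0.34 ± 0.17). The probe sets of ATP5MF and of ATP5F1A (0.02 ± 0.17) were dim, with means of 5.23 and 4.99. ATP5F1B, the catalytic beta subunit, changed by 0.28 ± 0.10 without passing the test (adjusted p = 0.16). Complex I had 14 of 19 above 0 with a median of 0.09, and complex IV 13 of 20 with a median of 0.07. Among members that missed the test, COX7A2L, which helps respiratory complexes join into supercomplexes, had the highest value, 0.41 ± 0.16 (adjusted p = 0.19). The core subunits NDUFS1 and NDUFS3 gave 0.31 ± 0.12 and 0.29 ± 0.10, and NDUFV2 gave -0.25 ± 0.11, all without passing. COX10-DT, transcribed away from COX10, gave 0.40 ± 0.14 (adjusted p = 0.13).

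The lowest values in WT PR-A cells were those of COX7A1 (-0.26 ± 0.12), NDUFV2, NDUFA10 (-0.21 ± 0.18) and COX6A2 (-0.20 ± 0.13). COX7A1 and COX6A2 are the heart and muscle forms of complex IV subunits and were dim here, with means of 4.93 and 4.73. NDUFA10 was also dim, with a mean of 4.89, and its second probe set, with a mean of 4.15, gave 0.04 ± 0.12. The testis form COX6B2 had a mean of 5.23 and gave 0.16 ± 0.13. UQCRQ and COX6A1, nuclear-encoded subunits of complexes III and IV with the highest mean signals in their roles, gave 0.08 ± 0.11 and -0.03 ± 0.11. The mitochondrially encoded COX1 and COX2 gave -0.02 ± 0.11 and -0.03 ± 0.11, with array values of 13.84 to 14.07 and 13.98 to 14.22. Their levels with R5020 in WT PR-A cells lay within the range of the other groups.

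**Figure D2:**
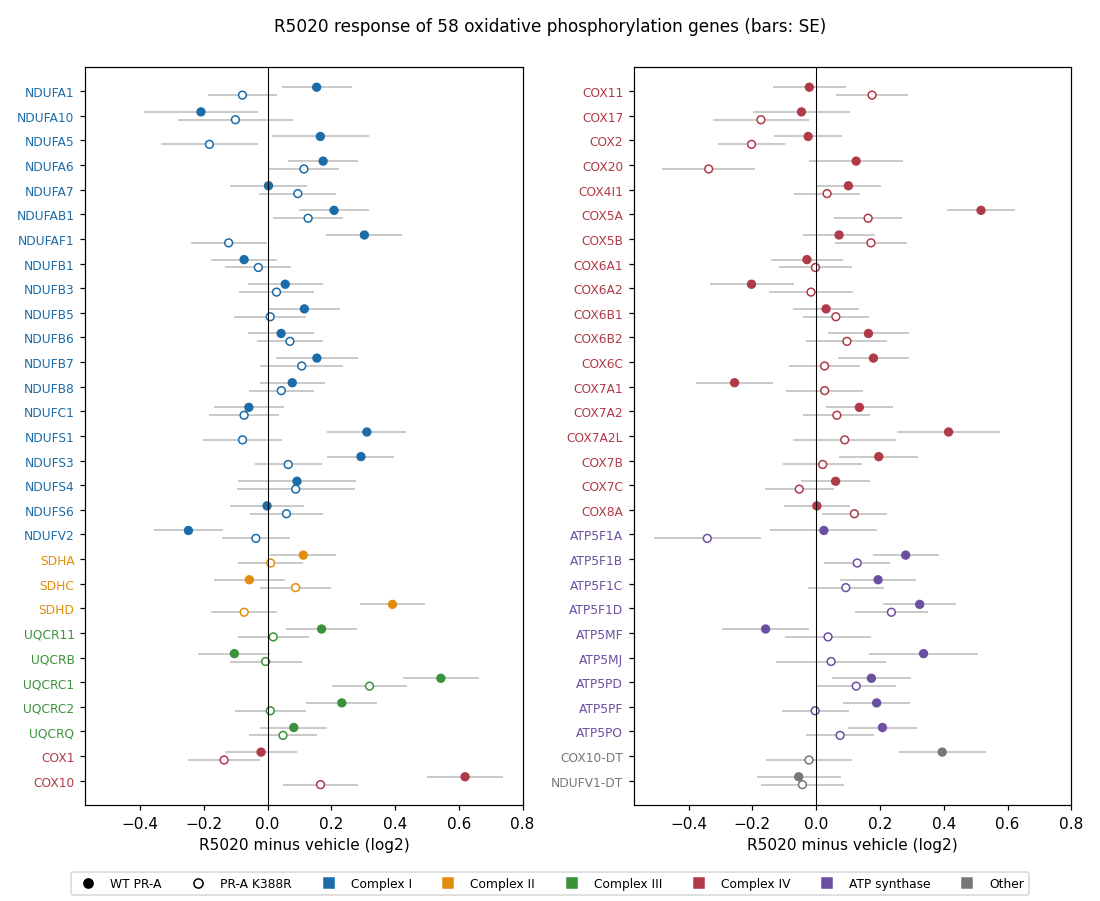
R5020 minus vehicle on the log2 scale for all 58 members, by complex, in WT PR-A cells (filled circles) and PR-A K388R cells (open circles), with bars for 1 SE. In WT PR-A 42 of 58 filled circles lie above 0, with COX10, UQCRC1 and COX5A highest; the median absolute change was 0.16 (WT PR-A) and 0.07 (PR-A K388R).

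In PR-A K388R cells no member passed the test in either direction by limma, against 1.33% of genes upward and 0.438% downward. The called shares were 1.25% and 0.416%. At an unadjusted p under 0.05 the count was 2 of 58 (3.45%), against 12.3% of all genes. After UQCRC1, the highest values were ATP5F1D (0.24 ± 0.11), the assembly factor COX11 (0.18 ± 0.11) and COX5B (0.17 ± 0.11). The lowest were ATP5F1A (-0.34 ± 0.17, with a mean level of 4.99), COX20, a chaperone of COX2 (-0.34 ± 0.15), COX2 (-0.20 ± 0.11) and NDUFA5 (-0.18 ± 0.15). The median was 0.03 against 0.01 over all genes, and 37 of 58 (63.8%) were above 0 against 51.7%. For 55 of 58 members the 95% interval of the change lay within 1.5-fold either way, against 81.1% of genes.

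The difference between the R5020 responses was tested itself. No member passed by limma, against 0.719% of genes with a higher and 1.16% with a lower response in PR-A K388R, and these shares were the same with the 1.5-fold minimum (0.719% and 1.16%). At an unadjusted p under 0.05 the count was 4 of 58 (6.9%), against 13.7% of all genes. The lowest differences were those of SDHD (-0.46 ± 0.15, adjusted p = 0.2), COX20 (-0.46 ± 0.21), COX10 (-0.45 ± 0.17, adjusted p = 0.3) and NDUFAF1 (-0.43 ± 0.17). The highest were COX7A1 (0.28 ± 0.17), NDUFV2 (0.21 ± 0.15), COX11 (0.20 ± 0.16) and ATP5MF (0.20 ± 0.19). The median was -0.09 against 0.02 over all genes, and 17 of 58 (29.3%) were above 0 against 54.2%. The responses of SDHD, COX10 and COX5A in WT PR-A are thus not shown to differ from those in PR-A K388R. The 95% interval of the difference lay within 1.5-fold for 40 of 58 members (69.0%), against 46.3% of genes. The median SE of the difference was 0.16 for the members and 0.185 for all genes.

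Without R5020, WT PR-A cells differed from both other lines at a few members. Against T47D-Y cells, NDUFAF1 and COX6C were lower and none was higher, while 6.19% of genes passed higher and 5.75% lower (4.48% and 4.03% with the 1.5-fold minimum, which no member met). Against WT PR-A vehicle, PR-A K388R vehicle had 4 members higher, ATP5MJ, NDUFB1, COX6C and NDUFAF1, and none lower, while 5.1% of genes passed higher and 7.59% lower. ATP5MJ alone was called, against 3.49% of genes called higher and 5.63% called lower. At an unadjusted p under 0.05 the counts were 8 of 58 (13.8%, against 23.1% of all genes) and 11 of 58 (19.0%, against 27.3%). Without the replicate block, 5 members passed lower and 1 higher against T47D-Y, where 7.76% of genes passed lower and 7.93% higher. Between the PR-A lines 7 passed higher and 0 lower, where 7.99% of genes passed higher and 10.2% lower. Both comparisons share the WT PR-A vehicle arrays, so an extreme value there enters both.

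ATP5MJ, a small membrane subunit of the ATP synthase, read 10.54 and 10.36 in WT PR-A vehicle, 11.11 and 11.29 in PR-A K388R vehicle and 10.78 and 10.77 in T47D-Y cells. In vehicle the 3 lines did not overlap. With R5020 it read 10.98 and 10.59 in WT PR-A and 11.05 and 11.44 in PR-A K388R. PR-A K388R exceeded WT PR-A in vehicle by 0.75 ± 0.17, or 1.68-fold (limma adjusted p = 0.021).

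NDUFB1, an accessory subunit of complex I, read 12.07 and 12.10 in WT PR-A vehicle, 12.64 and 12.59 in PR-A K388R vehicle and 12.41 and 12.47 in T47D-Y cells. With R5020 it read 12.04 and 11.98 in WT PR-A and 12.57 and 12.60 in PR-A K388R. All 4 WT PR-A arrays were below the other 6. The difference of PR-A K388R from WT PR-A in vehicle was 0.53 ± 0.10 (adjusted p = 0.01), and that of WT PR-A from T47D-Y was -0.35 ± 0.10 (adjusted p = 0.064).

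COX6C, a subunit of complex IV, read 11.78 and 11.87 in WT PR-A vehicle, 12.30 and 12.30 in PR-A K388R vehicle and 12.28 and 12.32 in T47D-Y cells. With R5020 it read 12.09 and 11.92 in WT PR-A and 12.30 and 12.36 in PR-A K388R. The WT PR-A arrays were again the lowest 4. WT PR-A differed from T47D-Y by -0.47 ± 0.11 (adjusted p = 0.025), and PR-A K388R from WT PR-A by 0.47 ± 0.11 (adjusted p = 0.024).

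NDUFAF1, an assembly factor of complex I, read 8.46 and 8.44 in WT PR-A vehicle, 8.86 and 8.97 in PR-A K388R vehicle and 8.89 and 9.01 in T47D-Y cells. With R5020 it read 8.86 and 8.64 in WT PR-A and 8.79 and 8.80 in PR-A K388R, so the lines overlapped there. WT PR-A differed from T47D-Y by -0.51 ± 0.12 (adjusted p = 0.025), and PR-A K388R from WT PR-A by 0.46 ± 0.12 (adjusted p = 0.035).

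The PR-A K388R differences of ATP5MJ, NDUFB1, COX6C and NDUFAF1 each missed the threshold without any one of the 4 arrays compared, with adjusted p up to 0.166, 0.0895, 0.187 and 0.224. NDUFAF1 also missed it without either PR-A K388R R5020 array or either T47D-Y array. The differences of WT PR-A from T47D-Y missed it without any one of their own 4 arrays, with adjusted p up to 0.19 for COX6C and 0.206 for NDUFAF1. By unmoderated contrasts NDUFB1 alone of these still passed (adjusted p = 0.0223).

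PR-A K388R vehicle against T47D-Y vehicle gave no member past the test by limma, while 1.82% of genes passed higher and 3.27% lower (1.35% and 2.48% called). At an unadjusted p under 0.05 the count was 3 of 58 (5.17%), against 22.0% of all genes. The highest values were ATP5MJ (0.42 ± 0.17), NDUFA5 (0.41 ± 0.15), COX7A1 (0.38 ± 0.12) and COX6A2 (0.29 ± 0.13), and the lowest were NDUFA7 (-0.26 ± 0.12), SDHC (-0.20 ± 0.11), NDUFA6 (-0.20 ± 0.11) and COX11 (-0.19 ± 0.11). The members' median was 0.05 for WT PR-A against T47D-Y (0.02 over all genes), 0.04 when PR-A K388R was set against T47D-Y (0.05), and between the PR-A lines it was -0.01 (0.05). Above 0 lay 39, 36 and 27 of 58 (67.2%, 62.1% and 46.6%), against 53.5%, 59.1% and 57.9% of genes. With arrays centred on their medians the second of these medians was -0.03. In WT PR-A against T47D-Y, NDUFA5 (0.35 ± 0.15), NDUFC1 (0.31 ± 0.11), NDUFV2 (0.24 ± 0.11) and COX7B (0.24 ± 0.12) were at the high end without passing, and ATP5PO (-0.38 ± 0.11, adjusted p = 0.056) and UQCRB (-0.36 ± 0.11, adjusted p = 0.085) were at the low end after NDUFAF1 and COX6C. In PR-A K388R against WT PR-A, COX11 (-0.29 ± 0.11), NDUFA7 (-0.26 ± 0.12), COX8A (-0.25 ± 0.10) and COX10 (-0.24 ± 0.12) were at the low end without passing.

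**Figure D3:**
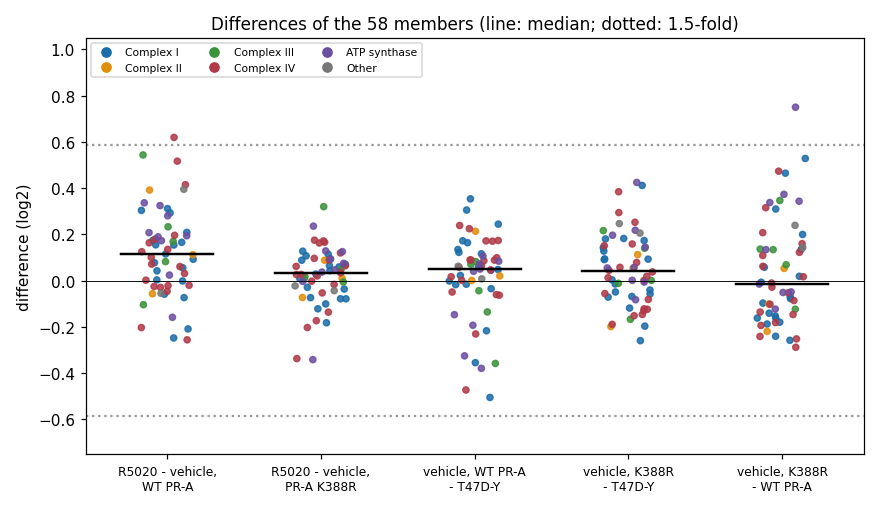
Differences of the 58 members on the log2 scale in 5 comparisons, coloured by complex, with a line for the median and dotted lines at 1.5-fold. COX10 in WT PR-A with R5020 and ATP5MJ between the vehicle-treated PR-A lines are the points beyond 1.5-fold.

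The R5020-treated arrays, whose means do not enter the vehicle differences, gave a further view of the lines, chosen after the vehicle values were seen. Both comparisons come from the same fit and share its estimate of the spread, so their p-values are not independent. There PR-A K388R was higher than WT PR-A for NDUFB1 (0.57 ± 0.10, adjusted p = 0.00531), UQCRB (0.44 ± 0.11, adjusted p = 0.0281) and COX7A1 (0.44 ± 0.12, adjusted p = 0.0389), while 7.83% of genes passed higher. It was lower for COX10 (-0.69 ± 0.12, adjusted p = 0.00387), SDHD (-0.57 ± 0.10, adjusted p = 0.00546) and NDUFS1 (-0.49 ± 0.12, adjusted p = 0.0288), while 9.01% passed lower. These values share the WT PR-A R5020 arrays with the response in that line. Of the members that differed in vehicle, NDUFB1 thus differed again, while ATP5MJ (0.46 ± 0.17), COX6C (0.32 ± 0.11) and NDUFAF1 (0.04 ± 0.12) did not pass.

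Differences between the lines were set beside those of each member's neighbours, up to 10 nearest measured genes on either side in RefSeq order. Other members and the dimmest 40% of probe sets were left out. NDUFS6 had 17 neighbours and SDHA 10. This comparison with neighbours was chosen after the values were seen. For PR-A K388R against WT PR-A in vehicle, the neighbours of ATP5MJ had a median of 0.37, with 19 of 20 above 0 and 9 past the test upward. Those of NDUFB1 had a median of 0.34, with 18 of 20 above 0, and those of COX6C 0.25, with 15 of 20. UQCRB, a complex III subunit that shares 10 neighbours with COX6C, gave 0.35 ± 0.11 (adjusted p = 0.088) beside a neighbour median of 0.35. ATP5PO, of the ATP synthase stalk, gave 0.37 ± 0.11 (adjusted p = 0.057) beside 0.22. Some other members did not follow their neighbours on the probe set used. NDUFAF1 had a neighbour median of -0.08, NDUFA6 gave -0.16 ± 0.11 beside 0.27 (15 of 20 above 0), and ATP5MF gave -0.05 ± 0.14 beside -0.55 (13 of 20 past the test downward). A second NDUFA6 probe set, with a mean of 8.78, gave 0.10 ± 0.11, the sign of its neighbours. The ATP5MF probe set was dim, with a mean of 5.23. Correlations were taken across the 52 nuclear protein-coding members at or above the median of all probe sets. The value of the member and the median of its neighbours correlated at Pearson's r = 0.46 and Spearman's rho = 0.39 in this comparison. The values were 0.46 and 0.28 for WT PR-A against T47D-Y, and 0.29 and 0.17 when PR-A K388R was set against T47D-Y. For the R5020 response in WT PR-A the values were -0.15 and -0.14. The points share arrays and 7 pairs of members share neighbours, so these are descriptions. The part of the neighbourhood in these differences was not tested.

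**Figure D4:**
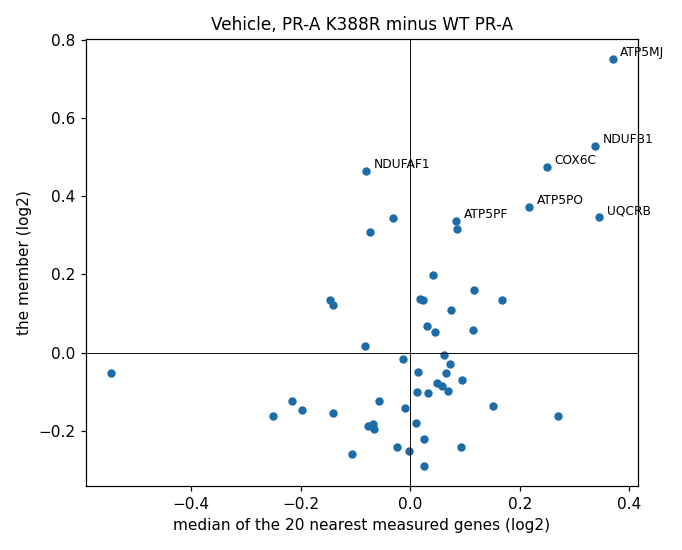
PR-A K388R minus WT PR-A in vehicle on the log2 scale, with each of 52 members (vertical axis) against the median of its 20 nearest measured genes (horizontal axis). ATP5MJ, NDUFB1, COX6C, UQCRB and ATP5PO lie at the upper right with neighbour medians of 0.22 or more, and NDUFAF1 lies to the left of 0.

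Of 25 listed regulators of mitochondrial biogenesis, 17 were measured. This list and those that follow were chosen with earlier results of these data known, so their counts are descriptions. In WT PR-A cells given R5020, 3 of the 17 rose and none fell, while 5.64% of all genes passed higher and 4.81% lower. ESRRA, the estrogen-related receptor alpha, read 9.10 and 9.04 in vehicle and 10.20 and 9.96 with R5020, and its change was 1.01 ± 0.13, or 2.01-fold (limma adjusted p = 0.00096). In PR-A K388R it read 8.78 and 9.01 in vehicle and 9.11 and 9.21 with R5020 (0.27 ± 0.13, adjusted p = 0.51), and in T47D-Y 8.76 and 8.71. The WT PR-A R5020 arrays did not overlap any other group. The difference between the responses was -0.74 ± 0.18 and did not pass (adjusted p = 0.092).

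PPARGC1B, a PGC-1 coactivator, read 5.93 and 5.95 in WT PR-A vehicle and 7.31 and 6.52 with R5020 (0.98 ± 0.24, adjusted p = 0.03). In PR-A K388R it read 5.53 and 5.86, then 6.0 and 6.34 (0.48 ± 0.24, adjusted p = 0.52). MYC changed by 0.91 ± 0.20 in WT PR-A (adjusted p = 0.02) and by 0.56 ± 0.20 in PR-A K388R (adjusted p = 0.31). PPARGC1B missed the test without either WT PR-A vehicle array or R5020 replicate 1 (adjusted p up to 0.178), and MYC without any of the 4 WT PR-A arrays (up to 0.165). The left-out change of PPARGC1B ran from 0.48 to 1.47. Neither passed by unmoderated contrasts (adjusted p = 0.265 and 0.215). NRF1 (0.16 ± 0.14), TFAM, which packages and transcribes mitochondrial DNA (-0.27 ± 0.11), and POLRMT, the mitochondrial RNA polymerase (0.35 ± 0.12), did not pass. PPARGC1A was dim, with a mean of 3.04, and gave 0.01 ± 0.12. The median over the 17 was -0.03, and none passed in PR-A K388R.

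Between the lines, MTERF1, a mitochondrial transcription terminator, and MTERF4, a family member that acts in building the mitochondrial ribosome, were above T47D-Y in vehicle-treated WT PR-A (0.80 ± 0.16 and 0.70 ± 0.13, adjusted p = 0.011 and 0.0086), and YY1 was lower (-0.50 ± 0.12, adjusted p = 0.031). In PR-A K388R against WT PR-A, POLRMT (0.72 ± 0.12, adjusted p = 0.0034) and YY1 (0.54 ± 0.12, adjusted p = 0.022) were higher. MTERF1 (-0.72 ± 0.16), MTERF4 (-0.62 ± 0.13) and NFE2L2 (-0.55 ± 0.12) were lower, with adjusted p of 0.018, 0.015 and 0.015.

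**Figure D5:**
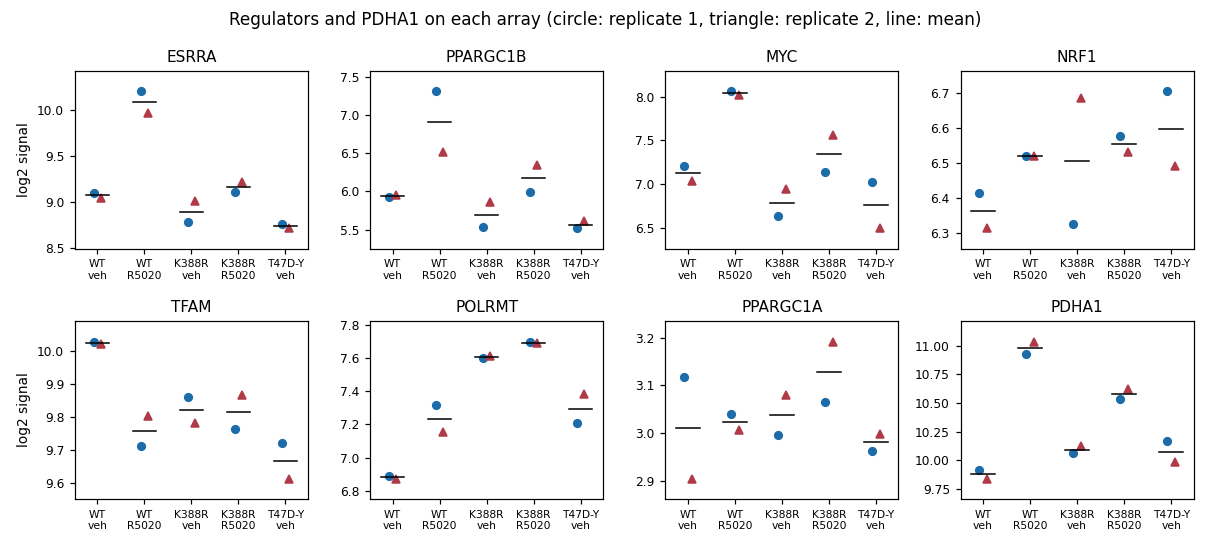
Log2 signal of 7 regulators and PDHA1 on each array, with circles for replicate 1, triangles for replicate 2 and lines for the group mean; each panel has its own axis, which does not start at 0. ESRRA, PPARGC1B, MYC and PDHA1 were highest on the WT PR-A R5020 arrays, and POLRMT was lowest on the WT PR-A vehicle arrays.

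Of 43 listed oxidative phosphorylation genes outside the name rule, 9 were measured. None of the 9 passed the test for R5020 in either line. Of all genes, 5.64% passed higher and 4.81% lower in WT PR-A, and 1.33% and 0.438% in PR-A K388R. Unlike the members, these 9 genes had a median of -0.07 in WT PR-A, with 4 of 9 above 0, from ETFA (-0.38 ± 0.13) to ETFDH (0.41 ± 0.16), which serve electron transfer from fatty acid oxidation. COA1, an assembly factor, read 5.74 and 5.76 in WT PR-A vehicle, 5.11 and 4.80 in PR-A K388R vehicle and 5.20 and 4.90 in T47D-Y cells. WT PR-A exceeded T47D-Y (0.70 ± 0.18, limma adjusted p = 0.034) and PR-A K388R was below WT PR-A (-0.80 ± 0.18, adjusted p = 0.018). The COA1 probe set was dim, with a mean of 5.23, and its differences were not followed with arrays left out. TMEM126B, a complex I assembly factor, was 0.40 ± 0.11 above its T47D-Y level in WT PR-A, at the threshold (adjusted p = 0.0497).

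Of 20 listed genes of the tricarboxylic acid cycle and its entry, 8 were measured. In WT PR-A cells given R5020, 1 of the 8 rose, while 5.64% of all genes passed higher. PDHA1, a subunit of pyruvate dehydrogenase, read 9.91 and 9.84 in vehicle and 10.93 and 11.04 with R5020, a change of 1.11 ± 0.12, or 2.15-fold (adjusted p = 0.00031). In PR-A K388R it read 10.06 and 10.12, then 10.53 and 10.63 (0.49 ± 0.12, adjusted p = 0.094). The difference of the responses was -0.62 ± 0.16 (adjusted p = 0.12). In vehicle, IDH3G was lower than in T47D-Y in WT PR-A (-0.87 ± 0.12, adjusted p = 0.0013) and in PR-A K388R (-0.61 ± 0.12, adjusted p = 0.02). IDH3A was higher in WT PR-A (0.52 ± 0.12, adjusted p = 0.027), and PDHX was lower in PR-A K388R than in WT PR-A (-0.60 ± 0.12, adjusted p = 0.012).

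The luminal markers moved with the groups. With R5020 in WT PR-A cells, KRT18 (-0.56 ± 0.11, adjusted p = 0.012) and FOXA1 (-1.46 ± 0.14, adjusted p = 0.00016) of 8 measured fell, and the markers' mean log2 level went from 10.1 on both vehicle arrays to 9.57 and 9.64. It was 10.1 and 10.2, then 9.88 and 9.99, in PR-A K388R and 10.5 and 10.6 in T47D-Y cells. Of 5 basal markers 1 (MYLK, -0.68 ± 0.11) and of 7 fibroblast markers 1 (COL1A1, -1.02 ± 0.22) also passed downward in WT PR-A. Of all genes 4.81% passed lower there. COL1A1 fell with R5020 in PR-A K388R too (-1.11 ± 0.22, limma adjusted p = 0.042), where no luminal or basal marker passed. In that line 1.33% of genes passed higher and 0.438% lower. Between the vehicle groups, 3 luminal markers were lower and 2 basal and 2 fibroblast markers higher in WT PR-A against T47D-Y. Of all genes, 6.19% passed higher and 5.75% lower there. In PR-A K388R against WT PR-A, 2 luminal markers were higher and 1 luminal, 1 basal and 1 fibroblast marker lower. Of all genes, 5.1% passed higher and 7.59% lower. In PR-A K388R against T47D-Y, 2 luminal markers and 1 fibroblast marker were lower, while 3.27% of genes passed lower. Over the arrays the mean level was 4.95 to 5.42 for basal and 4.4 to 4.84 for fibroblast markers. Leukocyte markers had none past the test in any comparison, with means of 3.79 to 4.08. In bulk RNA, fewer cells of a type and less RNA per cell cannot be told apart. The part of these markers in the members' values was not tested.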

How the data were processed

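RNA of 10 arrays was labelled and hybridized by the authors, who normalized the signals in Partek Genomics Suite. The values deposited by the authors are log2 signals per probe set; the normalization and background methods are not given in the sources used here. The labels and the methods name different media and RNA kits. The table analysed holds 16376 probe sets, a part of the array, of which 12547 had 1 gene symbol, 457 several and 3372 none listed.

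A linear model with group means and the replicate number as a block was fitted over the 10 arrays (limma 3.58.1 in R 4.3.3), leaving 4 residual and 5.62 prior degrees of freedom. The Benjamini-Hochberg adjustment of p-values ran over the whole table. A member passed at an adjusted p under 0.05 and was called where the change was also at least 1.5-fold, the study's own rule. Replicate differences summed to 0 over the groups (largest absolute sum 3.00e-04), so the replicate number had been removed before deposit. This forces the deviations of same-numbered arrays to sum to 0 (correlations -0.511 to -0.013), and the labels do not say what the number marks.

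The members and lists were chosen with earlier results of these data known. The text names every called member, the 4 largest changes in each direction of each comparison, the brightest member of each role, tissue isoforms, and members of the other lists that were called or that regulate mitochondria. Roles of COX1, COX2, COX10-DT and NDUFV1-DT, the motifs, the neighbours and the R5020 comparison of lines were added after the values were seen. Gene order, names and promoters came from RefSeq (GRCh38.p14). The scripts were tested on simulated data. Alternatives were no block, an intensity trend, unmoderated contrasts, quantile normalization, median centring, no dim probe sets, other fold minimums, other probe sets, current symbols and each array left out. Figures were drawn with matplotlib in Python.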

Additional observations from a re-analysis of the deposited data

How the results depend on the processing

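Without the replicate block the called counts were those of the blocked fit, 1 for R5020 in WT PR-A, 1 for PR-A K388R against WT PR-A in vehicle and 0 in the other 4 comparisons. No replicate block and no fold minimum, a setting chosen after seeing the data, gave 5, 6, 1 and 7 members past the test for R5020 in WT PR-A, WT PR-A against T47D-Y, PR-A K388R against T47D-Y and PR-A K388R against WT PR-A. Over all genes 7.02% passed higher and 6.42% lower, 7.93% and 7.76%, 4.07% and 5.82%, and 7.99% and 10.2%, in that order. With the block and no fold minimum the counts were 4, 2, 0 and 4. Unmoderated contrasts and the 2-fold minimum each gave 0 called in WT PR-A and 0 between the PR-A lines in vehicle. Quantile normalization moved the members' median in WT PR-A to 0.0696. Centring arrays on their medians moved it to -0.0283 for PR-A K388R against T47D-Y, turning its sign, and to -0.0638 for PR-A K388R against WT PR-A. The SD of the members' median between replicates was 0.03. With each array left out, the called counts ran from 0 to 1 in WT PR-A and from 0 to 1 between the PR-A lines, and stayed at 0 to 0 elsewhere. The medians ran from 0.0724 to 0.125 (R5020 in WT PR-A), 0.0245 to 0.0534 (R5020 in PR-A K388R), -0.121 to -0.0563 (difference of responses), 0.0235 to 0.071 (WT PR-A against T47D-Y), 0.0105 to 0.0431 (PR-A K388R against T47D-Y) and -0.0649 to 5.11e-03 (PR-A K388R against WT PR-A). Of the members that passed in the 6 comparisons and of ESRRA, PPARGC1B, MYC and PDHA1, none turned its direction in any of 19 alternatives, and ESRRA and PDHA1 passed in all 19. With 2 arrays a group, dim members such as NDUFS4 and COX17 have values near the array's background and little precision.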
